A study of Nothobranchius furzeri with 20 samples.

Results

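The 200 genes described here are those whose transcript share varied least across the brain libraries of the turquoise killifish Nothobranchius furzeri. Expression was taken as CPM, the read count of a gene as parts of 1000000 counts of its library. Of 26739 gene identifiers in the count table, 8928 had a mean CPM between 20 and 500, and the 200 of these with the lowest coefficient of variation (CV, standard deviation divided by mean) over all 20 libraries form the set. The genes were chosen by this CV over these libraries, so their low CV is a description and not a finding. All animals were male and of the GRZ strain, a short-lived laboratory strain, and brain RNA was sequenced in 4 age groups, 5, 7, 10 and 14 weeks, of 5 libraries each, with no treatment named in the labels. Nothing in the labels says whether brains were pooled or which animal a library came from. The p-values set differences between ages against the spread between libraries of an age, which may not be the spread between animals.

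Genes with steady transcript levels are commonly called reference or housekeeping genes. They serve as the yardstick against which the level of a changing gene is expressed, for example in quantitative PCR, and many of those in common use encode parts of the machinery that every cell needs for protein synthesis, metabolism or the cytoskeleton. Whether a gene is steady depends on the tissue, the ages compared and the quantity by which libraries are scaled. The count table gives identifiers without gene names, and 0 of them occur in the RefSeq gene table for the species, so no member could be assigned a function or compared with known reference genes, and the labelled tissue was not checked against marker genes.

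Library totals ran from 12.0 M (M, mega) to 30.7 M counts, with a median of 21.6 M. Each member had between 252 and 13199 reads in every library, with a median of 1586. The libraries did not all resemble each other. By rank correlation over all genes, replicate 3 of 7 weeks and replicates 4 and 5 of 5 weeks were least like the rest, and these 3 libraries are named below wherever a value rests on them.

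The members varied over the 20 libraries by a median CV of 6.81%, from 3.39% to 7.47%, while the median CV of the 8928 genes in the same range of expression was 16.2%. The ratio of the highest to the lowest library was below 1.5 in all 200 members, below 1.3 in 126 and below 1.2 in 6, and its median was 1.29. Among the 8928 genes the median ratio was 1.90. The limit of the set fell in a continuous distribution. The last gene inside it, Nfu_g_1_020010, had a CV of 7.466% and the first outside it, Nfu_g_1_018166, also had 7.466%, and 999 genes had a CV below 10%.

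**Figure D1:**
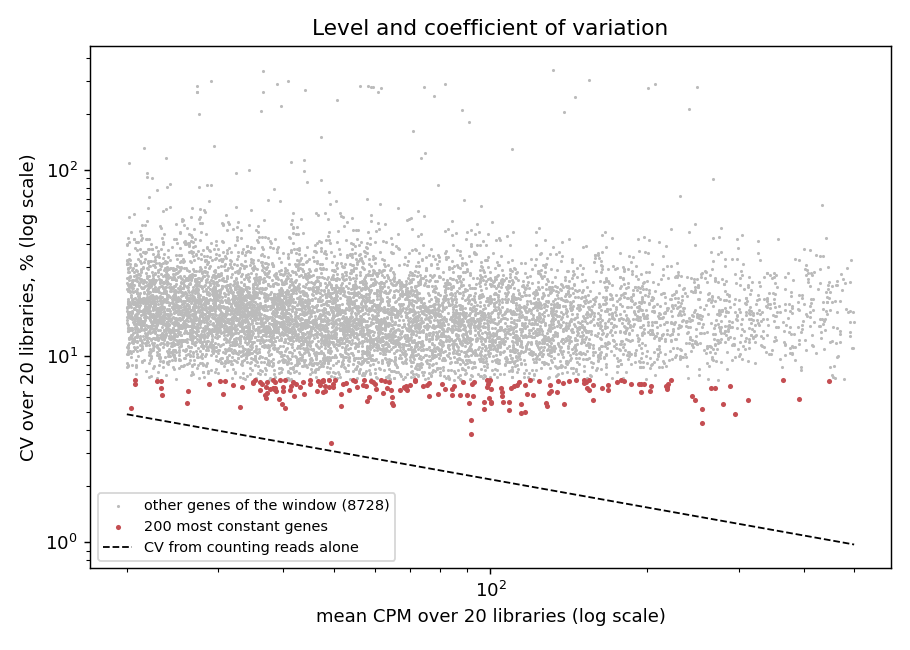
CV in percent against mean CPM over 20 libraries, both on log scales, for the 8928 genes with a mean CPM of 20 to 500; red points are the 200 members, grey points the other 8728 genes, and the dashed line is the CV that counting reads alone would give. The members lie along the lower edge at every level, above the dashed line, and only a few come near it.

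The most constant gene was Nfu_g_1_006714, a gene of 3108 counted bases. Its 5-week libraries were at 49.8, 50.6, 51.5, 47.3 and 51.8 CPM, its 7-week libraries at 50.2, 48.5, 50.9, 49.8 and 48.6 CPM, its 10-week libraries at 48.2, 47.3, 46.0, 49.1 and 50.2 CPM, and its 14-week libraries at 48.3, 52.0, 50.6, 50.9 and 47.8 CPM. The 4 age groups overlapped throughout, and the lowest library, 10-week replicate 3, lay 7.06% below the mean of all 20. The CV was 3.39%, and 83.1% of its variance is the amount that random sampling of reads would give at this depth. From 5 to 14 weeks the log2 fold change came to 0.00 ± 0.063 (SE), with a 95% interval of -0.13 to 0.13 (edgeR's quasi-likelihood test, adjusted p = 0.9998).

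Nfu_g_1_015877 followed with a CV of 3.80% and a mean of 91.9 ± 3.49 CPM (SD, n = 20). Its libraries were at 92.1, 91.5, 89.2, 87.1 and 92.0 CPM at 5 weeks, 97.7, 93.0, 93.7, 92.5 and 93.7 CPM at 7 weeks, 97.3, 97.8, 92.6, 89.9 and 93.9 CPM at 10 weeks, and 87.4, 85.0, 88.6, 89.2 and 93.1 CPM at 14 weeks. Its 7-week libraries all lay above its 5-week libraries, although the means of both ages, 94.1 ± 2.05 and 90.4 ± 2.15 CPM (SD, n = 5), were only a few percent apart. In all, 4 members (2%) had such full separation upward from 5 to 7 weeks. This held for 0.298% of the tested genes and for 46 of the 8928 genes. Fully lower at 7 weeks were 3 members (1.5%), 1.3% of the tested genes and 77 of the 8928 genes. These are counts of a few members in CPM, and their difference from the other sets was not tested. In Nfu_g_1_015877 50.6% of the variance lay between ages.

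The next in order, Nfu_g_1_000510, was more abundant and had a CV of 4.36%. It was at 252.4, 264.3, 231.2, 255.8 and 247.5 CPM at 5 weeks, 249.999, 256.2, 264.2, 266.9 and 255.6 CPM at 7 weeks, 259.9, 263.7, 266.8, 249.7 and 246.1 CPM at 10 weeks, and 241.4, 248.5, 238.7, 255.4 and 278.1 CPM at 14 weeks. The lowest library was 5-week replicate 3 and the highest 14-week replicate 5, and the ages overlapped. Nfu_g_1_015779, with a CV of 4.53%, was at 92.9, 93.7, 85.0, 86.1 and 94.97 CPM at 5 weeks, 87.9, 83.3, 96.8, 92.2 and 93.9 CPM at 7 weeks, 93.8, 93.9, 88.7, 91.5 and 85.8 CPM at 10 weeks, and 96.3, 89.8, 95.2, 96.4 and 93.9 CPM at 14 weeks. Its extremes, 83.3 and 96.8 CPM, were both at 7 weeks.

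Members were found at every level within the chosen range, but less often among the lowest genes. Of 1933 genes with a mean of 20 to 30 CPM, 10 were members, which is 0.517%. The share was 2.39% of 2302 genes at 30 to 50 CPM, 2.54% of 2521 genes at 50 to 100 CPM, 3.53% of 1444 genes at 100 to 200 CPM and 2.75% of 728 genes at 200 to 500 CPM. The CV that counting alone would give was 4.40% (median) in the lowest of these bins and 1.31% in the highest, while the median CV of all genes was 17.8% in the lowest and 16.3% in the highest. The most abundant member was Nfu_g_1_011656, with 447 ± 32.8 CPM (SD, n = 20), and the least abundant was Nfu_g_1_022324, with 20.4 ± 1.08 CPM, in which 83.4% of the variance was the counting part.

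Counting noise made up little of the variance of most members. Its share had a median of 15.03% among the members and 3.22% among all 8928 genes. It exceeded 25% in 42 members and 50% in 4, where 76 and 4 of the 8928 genes did so. The share is relative to the squared CV, by which the members were chosen, so the choice itself favours a higher share. In the other members, most of the variance lay beyond what the sampling of reads gives. The counting part is computed for independent reads, and the libraries carried no molecular identifiers.

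Gene length, which the rule did not use, differed between the members and the genes of the 20 to 500 CPM range as a whole, whose median level of 52.7 CPM was also lower than the members' 71.5 CPM. The median length was 4532.5 bases among the members and 3756 bases among the 8928 genes, and the range of the members was narrower, with quartiles of 3521.75 and 5744.5 bases against 2100 and 5973.5. When the 8928 genes were divided by length into 4 groups of 2231 to 2233 genes, 18 members fell in the group of shortest genes, 44 and 93 in the next 2 groups and 45 in the longest. The median CV of all genes was 18.6% in the shortest group, 15.9% and 14.3% in the next 2 and 15.9% in the longest. Level moved with length here, since the median counting CV went from 3.43% in the shortest to 2.37% in the longest group, and its part in the difference was not tested. The shortest member, Nfu_g_1_016214, measured 312 bases and the longest, Nfu_g_1_018508, 16179 bases. Per length, the members' mean level ran from 3.34 to 159 RPKM (CPM per kilobase of gene length, computed with each library's own total), with a median of 17.8 RPKM against 16.2 RPKM for all 8928 genes.

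The set as a whole took nearly the same share of the reads at every age. Since each member was chosen for a low CV of CPM, their sum was bound to vary little, so this is a description. The summed level of the 200 genes was 19758 ± 537 CPM (SD, n = 5) in the 5-week group. It came to 19786 ± 383 CPM in the 7-week group, 19434 ± 174 CPM in the 10-week group and 19569.5 ± 442 CPM in the 14-week group. The lowest library was 5-week replicate 4 with 18845 CPM and the highest 14-week replicate 5 with 20345 CPM, so the age groups overlapped. The difference between the ages was smaller than the range within 5 weeks alone.

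**Figure D2:**
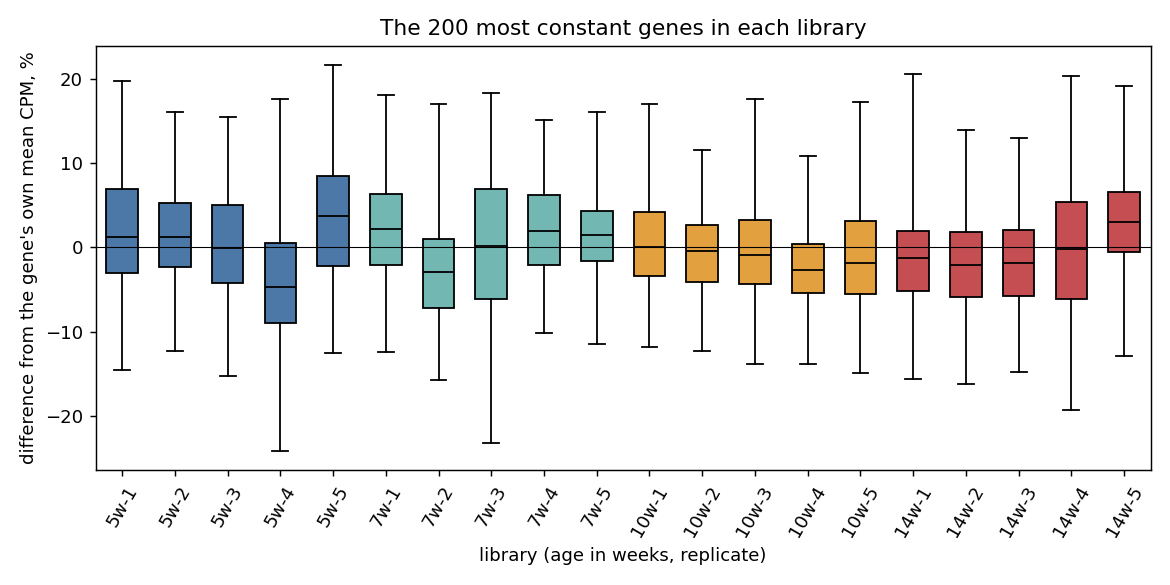
Difference of each member's CPM from its own mean over 20 libraries, in percent, for the 200 genes in each library (age in weeks and replicate); boxes span the quartiles, the line is the median and the whiskers reach the extremes. The medians lie between -4.72% in 5-week replicate 4 and 3.73% in 5-week replicate 5, and the whiskers reach beyond 20% in a few libraries only.

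Within the set, the libraries were not equally steady. The median member stood at -4.72% from its own mean in 5-week replicate 4 and 3.73% above it in 5-week replicate 5, and the other 18 library medians ran from -2.96% to 3.07%. The number of members more than 10% from their own mean was 58 in 7-week replicate 3, 47 in 5-week replicate 4 and 42 in both 5-week replicate 5 and 14-week replicate 4, and it was lowest, at 9, in 7-week replicate 5 and in 10-week replicates 1 and 4. In 7-week replicate 3, 25 members had their highest and 23 their lowest value, which is 24% of the set. That library held the highest or lowest value of 54.6% of all 8928 genes. The member that departed farthest from its mean in a single library was Nfu_g_1_020010, which was at 117.3 CPM in 5-week replicate 4, at -24.1% from its mean, and at 138.6 to 168.5 CPM in the other 19. Nfu_g_1_012940 was at 29.3 CPM in 7-week replicate 3 and at 33.7 to 40.8 CPM elsewhere.

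Within each age the members varied less than all 8928 genes, and the ages were not alike. The spread within ages is part of the variance by which the members were chosen, so their lower values are a description. The median CV of the members within an age was 6.50%, 6.27%, 4.77% and 5.70% in the order of age. For all 8928 genes it was 14.3%, 17.9%, 9.66% and 11.8%. Both sets had their lowest spread at 10 weeks. Without the 3 libraries of lowest correlation, the members' median CV was 4.504% at 5 weeks (3 libraries) and 5.03% at 7 weeks (4 libraries). That of all 8928 genes was 9.30% and 8.91%. These CVs come from fewer libraries than the 5 at 10 weeks, so they cannot tell whether 10 weeks stays lowest. Members showed weak pairwise likeness over the 20 libraries, with a median Pearson r of 0.10 over 19900 pairs and quartiles of -0.10 and 0.29, where all pairs of the 8928 genes had a median of 0.0092 and quartiles of -0.30 and 0.32. All these pairs share the same 20 libraries and their totals.

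Choosing the genes anew in part of the libraries allowed the constancy to be measured in libraries that the choice had not used. When the 200 genes of lowest CV were chosen in the 15 libraries of 3 ages, their median CV in the 5 libraries of the remaining age was 8.81% (5 weeks), 8.38% (7 weeks), 5.77% (10 weeks) or 6.86% (14 weeks). The corresponding medians of all genes in range were 14.3%, 17.9%, 9.66% and 11.8%. Of the 200 chosen genes, 173, 185, 184 and 177 lay below the median of all genes in the same order of ages. In the 15 libraries that chose them, the same genes had median CVs of 5.90%, 6.01%, 6.83% and 6.54%, which include differences between ages and are not on the same footing as the CV within 1 age. At 7 weeks 14 of the 200 had a CV above 20% in the age left out (42.6% of all genes in range), with a highest CV of 26.9%. At 5 weeks it was 2 of the 200 (24.9% of all genes), with a highest CV of 27.6%. At 10 and 14 weeks it was 0 (8.70% and 17.7% of all genes). The 7-week values rest on 7-week replicate 3. Without it, 0 of the same 200 genes had a CV above 20% at 7 weeks and the median CV was 5.35% (8.92% for all genes in range). Without replicates 4 and 5 the 5-week medians were 5.40% and 9.31%. In those 3 libraries, 2 of the 200 had a CV above 20%, with a highest of 20.9%.

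The level at an age left out was also close to that of the other ages. The mean of the age left out lay beyond 1.2-fold of the mean of the other 15 libraries in 2 of 200 chosen genes at 5 weeks (1% against 18.4% of all genes in range), 6 at 7 weeks (3% against 11.6%), 0 at 10 weeks (17.5% of all genes) and 1 at 14 weeks (0.5% against 10.4%). The median absolute log2 difference was 0.066, 0.069, 0.060 and 0.053 for the chosen genes and 0.12, 0.10, 0.12 and 0.093 for all genes. These 4 sets were not the same genes as the 200 members and shared 121, 108, 148 and 144 of them.

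**Figure D3:**
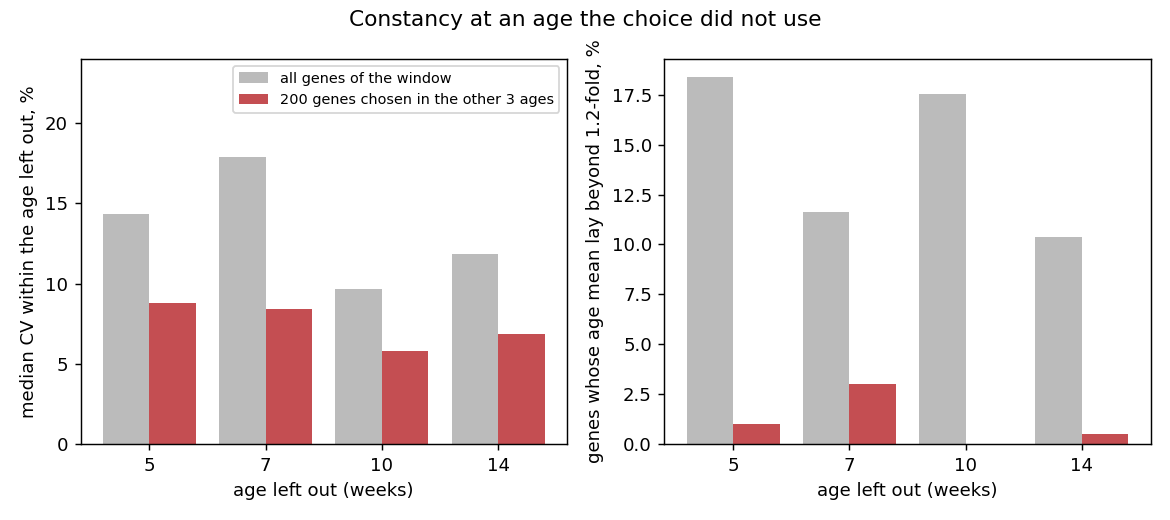
For genes chosen in 3 ages, the median CV in percent within the age left out (left) and the percentage of genes whose mean at that age lay beyond 1.2-fold of the other ages (right), in red for the 200 chosen genes and in grey for all genes of the range. The red bars are below the grey bars at each age, with 8.81% against 14.3% for the CV at 5 weeks.

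Leaving out 1 library at a time showed where the constancy in CPM failed. The 200 genes chosen in the other 19 libraries lay within 1.2-fold of their mean in the library left out in 182 to 200 cases for 18 of the libraries. The exceptions were 7-week replicate 3 with 129 genes and 5-week replicate 4 with 150 genes. In 7-week replicate 3 that is 64.5% of the chosen genes against 31.6% of all genes in range, and in 5-week replicate 4 it is 75% against 58.7%. The farthest single departure was 0.88 on the log2 scale, in 7-week replicate 3. In the remaining 18 libraries the farthest departure ran from 0.24 to 0.50, so single chosen genes were off by more than 1.2-fold in most of them (0.26 on the log2 scale).

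**Figure D4:**
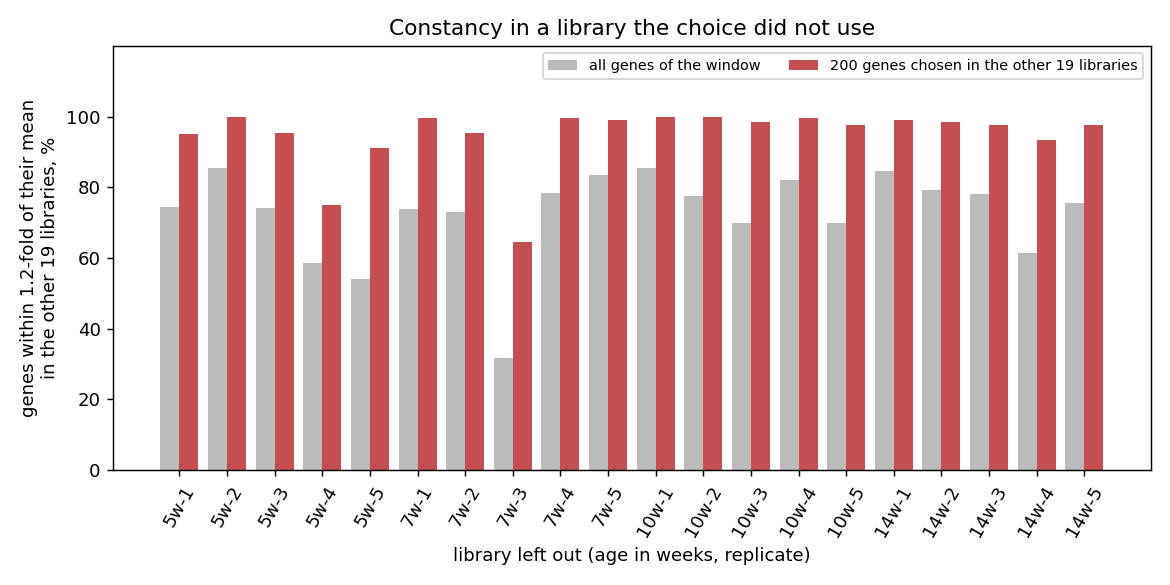
Percentage of genes within 1.2-fold of their mean in the other 19 libraries, for each library left out (age in weeks and replicate), in red for the 200 genes chosen without that library and in grey for all genes of the range. The red bars stand at 91% to 100% except in 5-week replicate 4 (75%) and 7-week replicate 3 (64.5%).

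No member passed the test for a difference between ages. All 200 were among the 19474 genes tested, and edgeR's quasi-likelihood test with Benjamini-Hochberg adjustment over all of them called 0 members at an adjusted p below 0.05 over the 4 ages, where 7.19% of the tested genes were called. The count was also 0 for 14 against 5 weeks (2.48% of tested genes), 7 against 5 weeks (0.0308%), 10 against 7 weeks (2.75%) and 14 against 10 weeks (0.0976%). At an unadjusted p below 0.05 there were 7, 9, 8, 8 and 2 members in these tests, against 24.2%, 18.6%, 11.9%, 17.7% and 6.08% of the tested genes. In the same order of tests, DESeq2 called 5, 2, 0, 1 and 0 members, where it called 14.3%, 6.02%, 1.55%, 6.21% and 0.483% of the tested genes. By limma-voom it was 0 members in each test, against 5.28%, 2.07%, 0.0257%, 2.35% and 0% of the tested genes. When the 3 libraries of lowest correlation were left out, edgeR called 5 members over the 4 ages (15.1% of tested genes) and 3 at 14 against 5 weeks (6.15%). It called 1 member at 14 against 5 weeks when 5-week replicate 5 alone was left out (3.6% of tested genes) and 1 when 7-week replicate 3 alone was (6.11%). The rule bounds the variance of a member over these same libraries, so these counts describe the set and are not evidence about it.

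The estimated changes were small. The rule bounds the variance of a member over these same libraries, so small changes follow from the choice and are a description. Between 14 and 5 weeks the members' log2 fold changes ran from -0.23 to 0.21, with a median of -0.0080 and a median size of 0.050, while the median size was 0.14 among the 8928 genes and 0.19 among all tested genes. In the 3 successive steps the median size was 0.058, 0.056 and 0.036. The balance of signs depended on the scaling from 5 to 7 and from 10 to 14 weeks, and was similar under both scalings from 7 to 10 weeks. From 5 to 7 weeks 143 of the 200 log2 fold changes were positive (71.5%, against 63.45% of the 8928 genes), with medians of 0.037 and 0.050, but by the ratio of mean CPM 102 were positive (51%, against 54.42%). From 7 to 10 weeks 128 were negative (64%, against 50.02%), with medians of -0.027 and -0.00016. By mean CPM 124 were negative (62%, against 49.74%). From 10 to 14 weeks 118 were negative (59%, against 54.31%), with medians of -0.013 and -0.014, whereas by mean CPM 119 were positive (59.5%, against 53.15%). These steps share libraries. The log2 fold changes are relative to edgeR's TMM scaling, computed over the tested genes. The members' level in 5-week replicate 5 changes with TMM scaling computed over the whole count table, as given below.

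The members' changes were also measured more precisely than those of other genes. The median standard error of a log2 fold change between 14 and 5 weeks was 0.077 for the members, 0.14 for the 8928 genes and 0.18 for all tested genes. The 95% interval lay within 1.2-fold in either direction in 163 of the 200 members (81.5%) and in 9.94% of the 8928 genes. For the successive steps, from 5 to 7, from 7 to 10 and from 10 to 14 weeks, 163, 166 and 183 members had such an interval. These were 81.5%, 83% and 91.5% of the members, against 12.2%, 9.21% and 16.7% of the 8928 genes. With a limit of 1.3-fold it was all 200 members in each of the 4 comparisons, and 35.4% of the 8928 genes between 14 and 5 weeks. In the successive steps it was 42.5%, 32.8% and 49.3% of the 8928 genes. These limits were set after the values had been seen, with the counts at a limit between them known, and the counts depend on the limit. The choice of members by low variance over these libraries also bears on both the size and the standard error, so these counts describe the set and support nothing. By construction edgeR draws the spread of each gene toward that of other genes of its level. Between 14 and 5 weeks, the members' median standard error from their own libraries of those ages was 0.059 on the log2(CPM + 1) scale. That value used CPM without TMM scaling and only those ages, so what made it lower than edgeR's 0.077 was not tested.

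The share of the CPM variance that lay between ages had a median of 19.8% among the members and 22.3% among the 8928 genes. The upper quartiles were 32.4% and 37.0%. The share exceeded 50% in 10 members, and how many of the 8928 genes did so was not counted. If ages did not matter, the average share would be 15.8%, and 79 members lay below that value. How many of the 8928 genes lay below it was not counted. As 15.8% is an average and not a median, the 79 do not tell how many members exceed it beyond what unchanged ages give. The share is part of the same variance that chose the members, and all genes share the 20 libraries, so it is a description and no sign of an age difference. The highest of the 4 age means was less than 1.1 times the lowest in 147 members (73.5%) and in 16.2% of the 8928 genes, with medians of 1.08 and 1.202. In CPM, the 5-week group held the highest mean of 66 members (33%, against 24.7% of the 8928 genes) and the 7-week group that of 65 (32.5%, against 24.5%). The 10-week group held that of 30 (15%, against 28.7%) and the oldest group that of 39 (19.5%, against 22.1%). The lowest mean was at 10 weeks in 72 members (36%, against 30.04%). These counts were not made with TMM scaling. That scaling moves the median member in 5-week replicate 5 from 3.73% above its own mean to -11.1% from it.

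The member with the largest share between ages, 71.8%, was Nfu_g_1_000943, singled out after its values were seen. It was at 39.3, 36.9, 39.1, 36.6 and 40.8 CPM at 5 weeks, 34.0, 36.2, 36.0, 37.6 and 34.5 CPM at 7 weeks, 34.3, 36.3, 33.2, 33.4 and 34.5 CPM at 10 weeks, and 32.3, 33.1, 30.8, 31.7 and 35.0 CPM at 14 weeks. The age means were 38.5 ± 1.79, 35.7 ± 1.43, 34.3 ± 1.22 and 32.6 ± 1.59 CPM (SD, n = 5), each below that of the age before. In CPM, every 14-week library lay below every 5-week library. Whether this holds with TMM scaling was not looked at. Its highest library, 5-week replicate 5, had a TMM factor of 1.17, so its level there depends on the scaling. From 5 to 14 weeks the log2 fold change came to -0.23 ± 0.067 (SE), which does not pass (edgeR adjusted p = 0.065). The adjusted p was 0.0071 by DESeq2. By edgeR it was 0.047 when 5-week replicate 5 was left out, 0.027 when 7-week replicate 3 was, and 0.026 when all 3 libraries of lowest correlation were, and over 26 alternatives it ran from 0.0071 to 0.17 with log2 fold changes of -0.27 to -0.21.

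The largest positive log2 fold change was that of Nfu_g_1_008188, also singled out after its values were seen. It was at 46.4, 46.4, 45.9, 45.3 and 50.9 CPM at 5 weeks, 52.2, 44.9, 48.7, 52.1 and 49.2 CPM at 7 weeks, 49.4, 53.4, 48.12, 48.8 and 52.2 CPM at 10 weeks, and 51.5, 51.9, 50.9, 60.4 and 54.9 CPM at 14 weeks. In CPM the 14-week libraries lay above the 5-week libraries, but the lowest of them and 5-week replicate 5 differed only beyond the first decimal. The level in 5-week replicate 5 depends on the scaling, and the separation was not looked at with TMM scaling. From 5 to 14 weeks the log2 fold change came to 0.21 ± 0.070 (SE; edgeR adjusted p = 0.10, DESeq2 adjusted p = 0.034), and over 26 alternatives the adjusted p ran from 0.034 to 0.25. In all, 3 members lay fully above and 3 fully below at 14 against 5 weeks in CPM, which is 1.5% in each direction, where 1.68% and 3.49% of the tested genes did so.

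**Figure D5:**
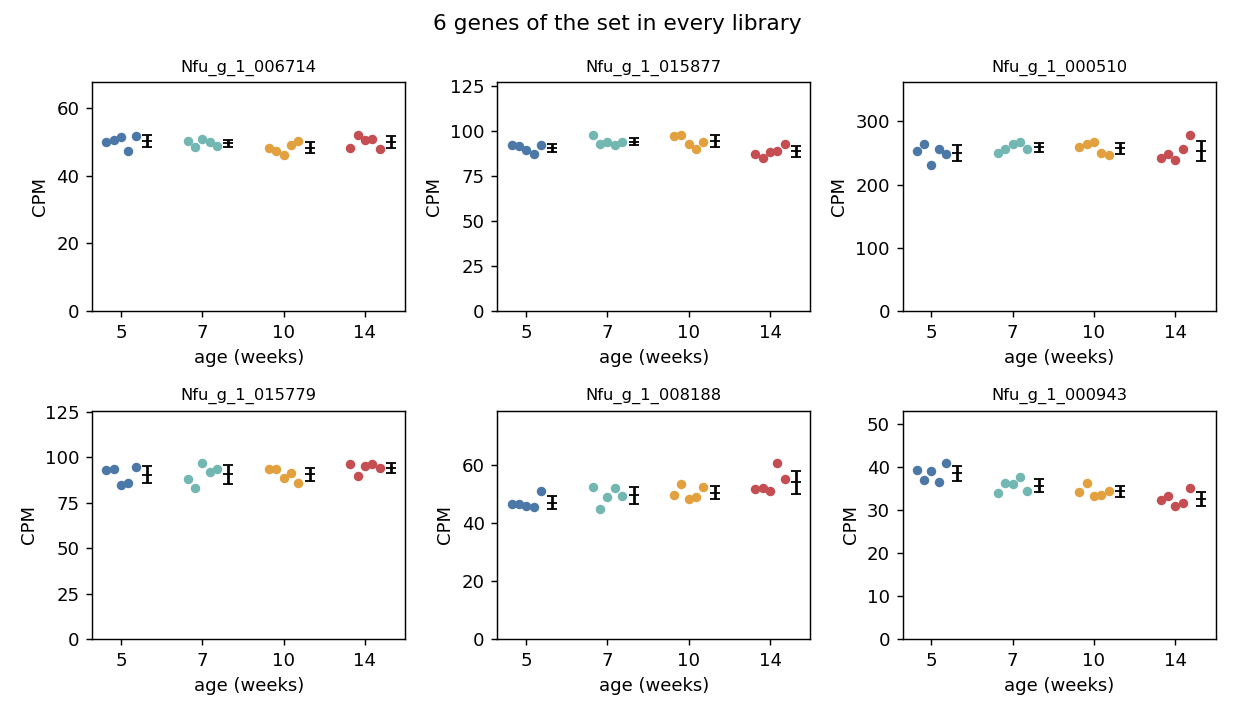
CPM in each library against age in weeks for the 4 most constant genes and for Nfu_g_1_008188 and Nfu_g_1_000943, the members with the largest positive and negative log2 fold change between 14 and 5 weeks; coloured points are libraries, black bars mean ± SD (n = 5), and each axis starts at 0. The 4 most constant genes overlap between most ages, while Nfu_g_1_000943 goes from 38.5 CPM at 5 weeks to 32.6 CPM at 14 weeks.

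Which genes counted as most constant depended on the scaling of the libraries. With TMM-scaled libraries 136 of the 200 members were among the 200 genes of lowest CV, with DESeq2 size factors 140, and 135 were so under all 3 scalings. The members' median CV was 7.31% with TMM and 7.20% with DESeq2 size factors. The scalings differed most in 5-week replicate 5, the library with the fewest counts, whose TMM factor was 1.17 (0.22 on the log2 scale). These factors were computed over the whole count table, and the tests used factors computed over the tested genes. The median member lay 3.73% above its own mean there in CPM and at -11.1% from it after TMM scaling, and the other genes of the range moved alike. In the other 19 libraries the TMM factor lay between 0.948 and 1.02. Nfu_g_1_006714 had the lowest CV under all 3 scalings (3.39%, 4.04% with TMM and 3.97% with DESeq2), and Nfu_g_1_015779 ranked 4, 2 and 2, whereas Nfu_g_1_000510 ranked 3 in CPM, 50 with TMM and 40 with DESeq2 size factors.

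Single libraries also set membership. Of the 200 members, 115 were among the 200 lowest whichever library was left out, and 450 different genes entered at least 1 of the 20 sets. Without 7-week replicate 3 the new set shared 132 members and without 5-week replicate 4 it shared 149, while leaving out any other single library kept 172 to 189. Without the 3 libraries of lowest correlation together, 80 of the 200 members were kept.

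The deposited RPKM table gave a different picture of the same genes. In it the members' median CV was 28.0% and the median ratio of highest to lowest library was 3.17, with a largest ratio of 6.88. For all genes of the range these medians were 32.8% and 3.65. The deposited RPKM values divide by 25 totals in rotation over the table. Of these totals, solved from the values together with the gene lengths, 20 matched a library total, and the origin of the rest is not known. That rotation gave back 99.987% of the values within 0.0011, and each library's own total gave back 4.43%. The RPKM computed with own totals have the CV of the CPM by construction, so the members show the size of the scaling difference directly.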

How the data were processed

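Raw read counts per gene identifier were deposited by the authors for 20 libraries. Tools listed in the submitters' processing notes, with no role or order, are featureCounts 1.4.6-p4, STAR 2.4.1d and CASAVA 1.8.2. Which genome build, annotation and strand setting were used is not given in the sources used here. RPKM values deposited by the authors served only to solve gene lengths and for the comparison of scalings, since the totals they divide by rotate over the table. Per the labels' protocols, libraries were made from total RNA with a TruSeq v2 kit, which does not mark strand. Members followed the CV rule on CPM (sample SD). Tests used R 4.3.3 with edgeR 4.0.16 (TMM, filterByExpr by age, robust quasi-likelihood fit of all 20 libraries, 1 mean per age, Benjamini-Hochberg over 19474 genes, adjusted p below 0.05). The SE was the log2 fold change divided by the square root of F. The counting CV took the variance of a Poisson count at each library total. DESeq2 1.42.0, limma-voom (limma 3.58.1), other scalings, filters and constancy measures, and left-out libraries were alternatives. The code was tested on simulated data. No 2 libraries of an age were alike within sampling noise (lowest chi-square per degree of freedom 8.67).

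Members and lists were chosen with earlier results of these data known. The bins of level and length, the share of variance between ages, the signs of changes under both scalings, the fold limits for age means, left-out libraries and intervals, and the descriptions of Nfu_g_1_008188 and Nfu_g_1_000943 were added after seeing the data. The yardstick for a shift of the median CV was the SD of the CV over members. The rule for named genes took the 4 lowest CVs, the extremes of level and length, the largest single deviation, the 2 genes on either side of the limit, and members passing the test between 14 and 5 weeks with full separation, of which there were 0. Marker lists were not used, since identifiers have no names.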

Additional observations from a re-analysis of the deposited data

Results flagged for a closer look

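Among the summed level of the set and the 12 named members, each looked at within 4 ages, 6 of 52 groups of 5 libraries held a library whose gap to the nearest other, divided by the range of the group, exceeded 0.71. Chance gives about 1 in 20 for separate groups not picked by their values. The named members were picked from these data, some by extreme values, and groups of different genes share libraries. The 6 of 52 can therefore not be set against that number. The summed level of the 200 genes at 14 weeks was 20345 CPM in replicate 5 and 19287 to 19495 CPM in the others (ratio 0.804). Nfu_g_1_015877 at 7 weeks was at 97.7 CPM in replicate 1 and 92.5 to 93.7 CPM in the others (ratio 0.769). Nfu_g_1_022324, the least abundant member, was at 17.9 CPM in 7-week replicate 3 against 21.12 to 21.6 CPM (ratio 0.866) and at 22.1 CPM in 10-week replicate 1 against 18.8 to 19.7 CPM (ratio 0.720). Nfu_g_1_012940 was at 38.8 CPM in 10-week replicate 5 against 40.2 to 40.8 CPM (ratio 0.725). Nfu_g_1_008188 was at 50.9 CPM in 5-week replicate 5 against 45.3 to 46.4 CPM (ratio 0.812). All 52 groups were looked at in CPM only. The TMM factor of 5-week replicate 5 was 1.17, so the last flag depends on the scaling, and it was not tested under another.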

How the results depend on the processing

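No paired analysis was possible because the replicate numbers follow accession order and pair nothing. Of the 200 members, 75 were kept with the median absolute deviation, 119 with the SD within ages, 80 without the 3 libraries of lowest correlation, and 121 and 108 without the 5- and 7-week libraries. Leaving out single libraries kept 132 to 189. The median CV stayed within 6.27% to 7.31% over 23 alternatives. Members called numbered 5 over all ages, 2 between 14 and 5 weeks and 1 between 10 and 7 weeks by DESeq2 (14.3%, 6.02% and 6.21% of tested genes), and 5 over all ages and 3 between 14 and 5 weeks without the 3 libraries (15.1% and 6.15%). Leaving out single libraries gave 0 to 1 between 14 and 5 weeks and 0 in the other tests. With no filter, DESeq2 size factors, limma-voom or only the ages compared, 0 were called. Some log2 fold changes turned sign between 14 and 5 weeks, most of them near 0. That of Nfu_g_1_006714 was -0.0039 with DESeq2 size factors, -0.0001 with no filter, -0.0063 by DESeq2, -0.0006 by limma-voom and -0.058 without the 3 libraries (-0.031 to 0.023 without single libraries). That of Nfu_g_1_011656 was -0.0032, -0.0034 and -0.023 with DESeq2 size factors, by DESeq2 and without the 3 libraries (-0.039 to 0.030). Without the 3 libraries, Nfu_g_1_000510 was at -0.019 (-0.026 to 0.043), and Nfu_g_1_020010 went from 0.14 to -0.0036 (0.082 to 0.20). Leaving out single libraries gave -0.051 to 0.0003 for Nfu_g_1_012940 and -0.054 to 0.0037 for Nfu_g_1_022324. The causes were not tested. A limit of 1.3-fold in place of 1.2-fold, chosen after seeing the data, moved the members with an interval inside it from 163 to 200 between 14 and 5 weeks. Measuring the ages left out without their libraries of lowest correlation, also chosen after seeing the data, moved the median CV from 8.81% to 5.40% at 5 weeks and from 8.38% to 5.35% at 7 weeks. In Nfu_g_1_022324, the least abundant member, counting makes up 83.4% of the variance, a share relative to the CV by which members were chosen. Its standard error between 14 and 5 weeks was 0.081, where the members' median was 0.077.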
